A study of Homo sapiens with 28 samples.

Results

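The unfolded protein response and the folding and disposal machinery of the endoplasmic reticulum (ER) were followed through 35 genes, taken by symbol from the 60286 genes listed in the count tables. Of the 35, 34 were expressed enough to be tested and DERL3 had 0 counts in all 28 libraries. RNA came from HT-1080, an established fibrosarcoma line of human origin whose genotype is given as WT. Each of 7 groups had 4 libraries, and treatment lasted overnight. The control group received the vehicle DMSO. RSL3, which blocks the lipid peroxide reductase GPX4 and is used to induce ferroptosis, was given at 10 nM. The fatty acids were LA (linoleic acid) at 80 µM, CLA18:2 (a conjugated isomer of LA) at 80 µM and CLA18:3 (a conjugated triene) at 5 µM. In the 2 combined groups RSL3 was given with LA or with CLA18:2 at these doses. The double bonds are separated by a methylene group in LA and conjugated in CLA18:2. The unit µM follows the text on the design, while the individual sample labels have mM.

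Proteins that enter the secretory pathway fold in the ER with the help of chaperones, lectins and disulfide enzymes, and those that fail are pulled back to the cytosol and degraded (ER-associated degradation, ERAD). A load of unfolded protein is read by the membrane sensors IRE1 (gene ERN1), ATF6 and PERK (gene EIF2AK3). IRE1 splices the XBP1 mRNA so that it encodes an active transcription factor, ATF6 is cut in the Golgi to release one, and PERK phosphorylates the translation factor eIF2alpha, which favours translation of ATF4. ATF6 and XBP1 then raise the genes of chaperones, translocation and ERAD, and ATF4 raises genes of amino acid supply and CHOP (DDIT3). Gene counts show the total XBP1 mRNA and cannot show its splicing, nor the cleavage or phosphorylation of the other sensors.

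The promoters of these genes are known for the ER stress response element (ERSE), bound by NF-Y and ATF6, its shorter variant ERSE-II, and the element of XBP1 and ATF6 called UPRE. In windows from 250 bases before to 50 after the RefSeq transcription start (GRCh38.p14), 32 of the 35 genes had an entry. ERSE (CCAAT, then 9 bases of any kind, then CCACG, on either strand) was found in 8 of them (25%), against 25 of all 27305 genes (0.0916%): XBP1, HSPA5, HSP90B1, CRELD2, CALR, CANX, PDIA6 and ERO1B. ERSE-II (ATTGG, then 1 base of any kind, then CCACG, on either strand) was found in 3 (9.38%, against 0.0696% of all genes), which were HYOU1, SDF2L1 and HERPUD1. UPRE (TGACGTGG, either strand) was found in 2 (6.25%, against 0.927%), HYOU1 and DNAJC10, and in HYOU1 it overlaps an ERSE-II. The CARE element of ATF4 (TGATGCAAT, either strand) was found in 0 of 32, against 0.293% of all genes. A match is a description of the letters and not a measured binding site. The stretches below are from RefSeq on GRCh38.p14, written in the direction of the gene. Only stretches free of annotated exons are printed, so those of XBP1, HSP90B1, CANX, PDIA6 and HERPUD1 are left out. Printed are HSPA5, which had the smallest p of the set with both conjugated acids, and CALR, the most abundant member per length. CRELD2, ERO1B, HYOU1 and SDF2L1 are also printed, and their values with CLA18:2 and CLA18:3 are set side by side below. Capitals mark exact matches to the ERSE as spelled above, or in HYOU1 and SDF2L1 to the ERSE-II. Stretches that differ from these letters were not searched for and stay in lower case. The capitals are therefore no full list of the elements in a promoter. In CALR, CRELD2, ERO1B, HYOU1 and SDF2L1 the element lies on the opposite strand and reads as its reverse complement.
HSPA5 (chr9:125241344-125241593, minus strand): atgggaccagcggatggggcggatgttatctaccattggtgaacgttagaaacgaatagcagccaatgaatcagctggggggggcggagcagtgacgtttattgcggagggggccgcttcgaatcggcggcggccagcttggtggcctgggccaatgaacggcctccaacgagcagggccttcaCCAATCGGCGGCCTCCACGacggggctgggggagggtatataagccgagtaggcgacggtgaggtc
CALR (chr19:12938364-12938422, plus strand): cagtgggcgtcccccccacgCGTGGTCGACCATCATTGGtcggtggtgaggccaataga
CRELD2 (chr22:49918534-49918592, plus strand): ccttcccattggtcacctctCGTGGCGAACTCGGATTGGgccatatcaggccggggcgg
ERO1B (chr1:236282163-236282208, minus strand): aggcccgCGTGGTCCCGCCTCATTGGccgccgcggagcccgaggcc
HYOU1 (chr11:119057360-119057410, minus strand): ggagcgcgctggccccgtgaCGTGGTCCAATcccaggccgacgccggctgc
HYOU1 (chr11:119057254-119057304, minus strand): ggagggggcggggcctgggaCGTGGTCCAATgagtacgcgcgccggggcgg
SDF2L1 (chr22:21642094-21642144, plus strand): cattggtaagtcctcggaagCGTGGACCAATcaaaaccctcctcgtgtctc

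The libraries held 16226270 to 24286824 counts. The ER genes were well covered: their mean level had a median of 119 CPM (counts scaled by library size and composition), against 14.9 over all 16325 tested genes, and the lowest of the 34 averaged 12.3. Of the 8 mesenchymal markers, VIM (2101 to 2887 CPM), FN1 (5084 to 6921), CD44, LGALS1, TPM2 and ENG were expressed in all libraries, while S100A4 averaged 1.01 CPM and NT5E 0.386. With CLA18:3, 5 of the 8 rose and 0 fell, and with CLA18:2 1 rose and 2 fell. The baseline for these and the later marker counts is the share of all tested genes that changed. It was 38.8% with CLA18:2 (20.1% rose), 35.9% with CLA18:3 (19.1% rose) and 35.2% with RSL3+CLA18:2. It was 8.32% with LA, 10.2% with RSL3+LA and 0.202% with RSL3. Of the 10 blood markers all averaged under 1 CPM, with sums of 0.0916 to 1.69 CPM per library, and of the 6 plasma cell markers, a secretory cell with a very active ER, only SDC1 was expressed (445.5 to 566 CPM). Of the 10 epithelial markers, EPCAM and CDH1 were at or near 0, with 0.637 CPM as the highest value, and 4 could be tested. Of these 4, KRT7, KRT8 and KRT18 fell with CLA18:2 (by 0.84, 0.60 and 0.52 on the log2 scale) and with RSL3+CLA18:2, KRT8 and KRT18 fell with LA and with RSL3+LA, KRT8 fell with CLA18:3, and 0 changed with RSL3. The summed level of the 10 was 838.5 to 906 CPM in DMSO, 817 to 892.5 with RSL3, 684.5 to 739 with LA, 554 to 619 with CLA18:2, 612 to 763 with RSL3+LA, 596 to 674 with RSL3+CLA18:2 and 735.5 to 792 with CLA18:3. Measures of the libraries moved with some groups. The number of genes detected after thinning to a common total averaged 22759 ± 105 (SD, n = 4) in DMSO, 21778 ± 310 with CLA18:2, 20030 ± 1127 with RSL3+CLA18:2 and 19378 ± 798 with CLA18:3, and the common biological coefficient of variation was 4.51%, 8.88%, 15.1% and 19.9% in the same order. With RSL3, LA and RSL3+LA the number averaged 22314 ± 236, 22142 ± 591 and 21851 ± 712. The coefficient in these groups was 7.77%, 7.26% and 9.01%. The share of counts on mitochondrial mRNA averaged 1.40 ± 0.10% in DMSO, 0.81 ± 0.54% with CLA18:2, 0.64 ± 0.69% with RSL3+CLA18:2 and 1.21 ± 0.60% with CLA18:3, and from 1.03% to 1.65% in the other 3 groups. In RSL3+CLA18:2 it was 1.68% in replicate 3 and 0.263% to 0.313% in the other 3 libraries. Low shares also stood in RSL3 replicate 4 (0.548%), LA replicate 4 (0.451%), CLA18:2 replicates 1 and 3 (0.312% and 0.425%) and CLA18:3 replicate 1 (0.356%). The part of these marker, library and mitochondrial differences in the results that follow was not tested. Over the 34 genes the coefficient of variation within a group had a median from 3.59% in LA to 4.84% in CLA18:3. In bulk RNA, more transcript per cell and more cells that make it cannot be told apart.

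Both conjugated acids raised nearly the whole set, LA raised less of it and by less, and RSL3 alone changed 1 gene, HSPA5, by a call that leaving out single libraries could end. Values are log2 fold changes ± SE against DMSO unless another group is named, n = 4 per group, and "rose" or "fell" means an adjusted p under 0.05 in edgeR's quasi-likelihood test over all tested genes. With CLA18:2, 32 of 34 rose and 0 fell, where 38.8% of all tested genes changed and 20.1% rose. The 4 libraries lay above all DMSO libraries for 32 of the 34 and for 21.2% of all tested genes. With CLA18:3, 29 of 34 rose and 0 fell, where 35.9% changed and 19.1% rose. Among genes averaging at least 10 CPM, a level chosen after seeing the data because the ER genes are highly expressed, 29.2% rose with CLA18:2, 28.2% with CLA18:3 and 7.87% with LA. With RSL3+CLA18:2, 30 rose and 0 fell (35.2% of all genes changed, 18.6% rose). With LA, 15 rose and 0 fell (8.32% changed, 4.91% rose), and with RSL3+LA 11 rose and 0 fell (10.2% changed, 5.43% rose). The median over the 34 was 0.54 with CLA18:2, 0.39 with CLA18:3, 0.40 with RSL3+CLA18:2, 0.14 with LA, 0.12 with RSL3+LA and 0.07 with RSL3, while the median over all tested genes lay between -0.02 and 0.01 in these comparisons. The changes were moderate in size: 4 genes reached 2-fold with CLA18:2 and 4 with CLA18:3. All these comparisons share the DMSO libraries.

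**Figure D1:**
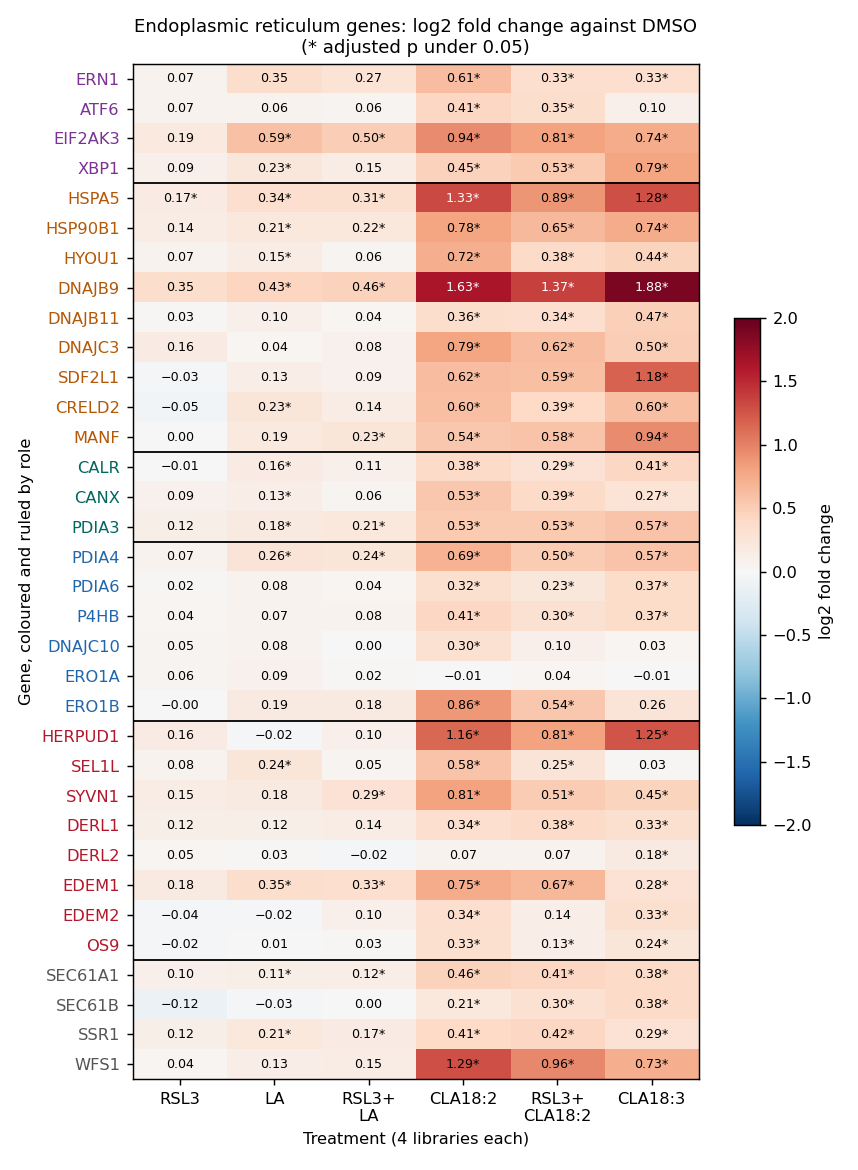
Log2 fold change against DMSO of the 34 tested ER genes (rows, coloured by role: sensors and XBP1, chaperones, lectin cycle, disulfide enzymes, ERAD, translocation and WFS1) in 6 treatments (columns, 4 libraries each); the cell holds the value and an asterisk marks an adjusted p under 0.05. The 3 columns with a conjugated acid hold 32, 30 and 29 asterisks, LA 15, RSL3+LA 11 and RSL3 alone 1, at HSPA5.

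All 3 sensor genes and XBP1 rose with CLA18:2, where 20.1% of all tested genes rose. EIF2AK3 stood at 13.2, 12.3, 10.7 and 13.2 CPM in the DMSO libraries, at 12.4, 15, 13.7 and 15.1 with RSL3, at 16, 17.6, 21.6 and 19.1 with LA and at 17.2, 21.3, 15.4 and 15.9 with RSL3+LA. Its level was 26.9, 22.5, 22.5 and 23 CPM with CLA18:2, 20.7, 22.1, 21.6 and 22.2 with RSL3+CLA18:2 and 25, 21.6, 19.4 and 16.8 with CLA18:3. Every treated group with a fatty acid lay above DMSO, and the RSL3 libraries overlapped it. EIF2AK3, which encodes PERK, rose by 0.94 ± 0.11 with CLA18:2, 0.74 ± 0.11 with CLA18:3 and 0.59 ± 0.11 with LA (adjusted p = 2e-08, 3.1e-06 and 0.0005). The transcription factor XBP1 showed a different order. XBP1 stood at 55.5, 55.3, 53.3 and 50.9 CPM in the DMSO libraries, at 59.4, 60.4, 55.5 and 54.2 with RSL3, at 67, 60.1, 58.4 and 66.7 with LA and at 56.5, 61.5, 60.8 and 60.4 with RSL3+LA. Its level was 74.4, 74, 75.3 and 71 CPM with CLA18:2, 77.3, 77, 75.7 and 80.7 with RSL3+CLA18:2 and 98, 92.7, 86.7 and 95.3 with CLA18:3. All CLA18:3 libraries lay above all others, and XBP1 rose by 0.79 ± 0.05 with CLA18:3 against 0.45 ± 0.05 with CLA18:2, at doses that differ.

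ATF6 stood at 88.1, 91.2, 92.5 and 90.8 CPM in the DMSO libraries, at 87.5, 89.8, 96.1 and 106 with RSL3, at 94.9, 92.5, 96.7 and 94.8 with LA and at 93.7, 94.6, 98.1 and 91.3 with RSL3+LA. Its level was 132, 121, 113 and 116 CPM with CLA18:2, 114, 111, 116 and 119 with RSL3+CLA18:2 and 95.9, 94.8, 99.7 and 97.7 with CLA18:3. The 2 groups with CLA18:2 stood clear of the other 5, and the CLA18:3 libraries sat just above DMSO. ATF6 rose by 0.41 ± 0.05 with CLA18:2 (adjusted p = 2.5e-08) and was at 0.10 ± 0.05 with CLA18:3, a difference with a 95% interval of -0.01 to 0.20 that did not pass the test. ERN1 stood at 15.8, 14.8, 16.2 and 15.3 CPM in the DMSO libraries, at 15.3, 17.9, 16.1 and 15.8 with RSL3, at 21.1, 18, 19.8 and 20.4 with LA and at 17.1, 18.7, 20.0 and 18.8 with RSL3+LA. Its level was 28.1, 24.2, 19.2 and 23 CPM with CLA18:2, 20.8, 22.3, 17.9 and 17.4 with RSL3+CLA18:2 and 15.7, 16.7, 20.7 and 24.9 with CLA18:3. The spread of ERN1, which encodes IRE1, was wide in the groups with a conjugated acid and the CLA18:3 libraries overlapped those of DMSO. It rose by 0.61 ± 0.12 with CLA18:2 and by 0.33 ± 0.12 with CLA18:3, and the second call was lost without DMSO replicate 2, CLA18:3 replicate 3 or CLA18:3 replicate 4 (adjusted p 0.0601 to 0.2). Its rise of 0.33 ± 0.12 with RSL3+CLA18:2 was lost without DMSO replicate 2 or RSL3+CLA18:2 replicate 1 or 2 (adjusted p 0.0615 to 0.0977).

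**Figure D2:**
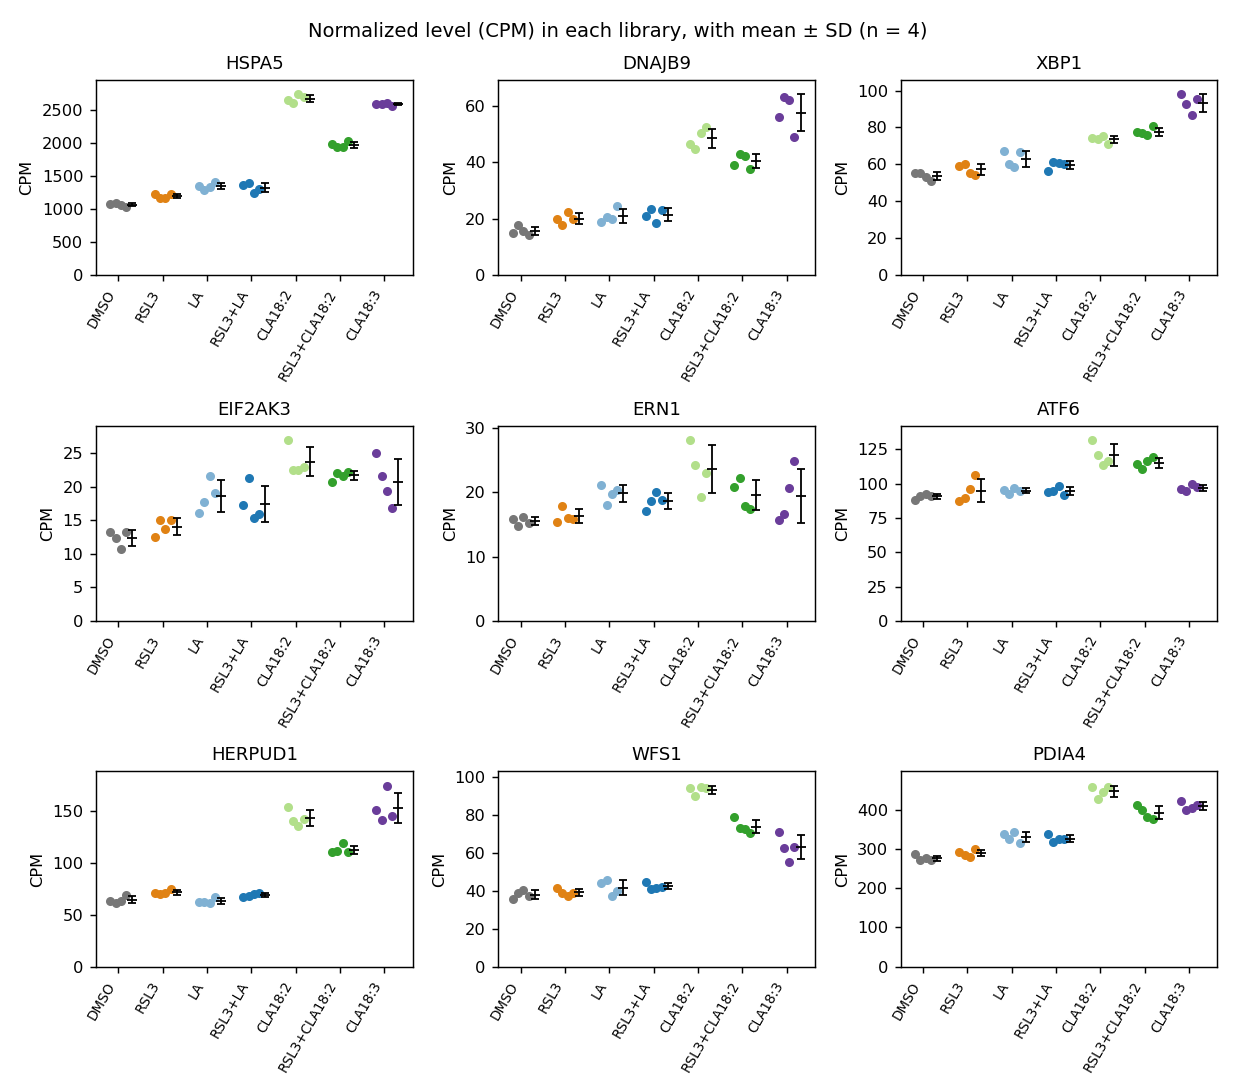
Level in CPM (y axis, from 0) of 9 ER genes in each of the 28 libraries by group (x axis), with the mean ± SD of the 4 libraries as a bar beside the points. HSPA5 is higher in all 24 treated libraries than in DMSO, XBP1 is highest with CLA18:3, and the lowest ATF6 value in the 8 libraries with CLA18:2 is 111 CPM, against 106 as the highest in the others.

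All 9 chaperone genes and cofactors rose with CLA18:2, with CLA18:3 and with RSL3+CLA18:2. In these comparisons 20.1%, 19.1% and 18.6% of all tested genes rose. HSPA5 stood at 1082, 1092, 1057 and 1041 CPM in the DMSO libraries, at 1228, 1173, 1171 and 1231 with RSL3, at 1348, 1295, 1345 and 1420 with LA and at 1367, 1391, 1249 and 1300 with RSL3+LA. Its level was 2663, 2609, 2747 and 2707 CPM with CLA18:2, 1984, 1938, 1945 and 2032 with RSL3+CLA18:2 and 2605, 2603, 2615 and 2572 with CLA18:3. The 7 groups of HSPA5 (BiP), the main Hsp70 chaperone of the ER and the protein that holds the sensors inactive, were far apart for their spread, and only LA with RSL3+LA and CLA18:2 with CLA18:3 overlapped as neighbours. It rose by 1.33 ± 0.04 with CLA18:2 (adjusted p = 3.6e-25), 1.28 ± 0.04 with CLA18:3 (adjusted p = 6.5e-25) and 0.34 ± 0.03 with LA (adjusted p = 7.5e-09). Of the 34 genes, it alone rose in all 6 treatments. Per kilobase of annotated exon, HSPA5 stood at 273 ± 5.95 CPM in DMSO, below CALR at 608.5 ± 25.5 and well above ERN1 at 1.43 ± 0.0540.

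DNAJB9 stood at 14.9, 17.6, 15.5 and 14.3 CPM in the DMSO libraries, at 19.8, 17.6, 22.5 and 19.9 with RSL3, at 18.9, 20.6, 20.0 and 24.4 with LA and at 21, 23.4, 18.3 and 23.1 with RSL3+LA. Its level was 46.4, 44.8, 50.3 and 52.4 CPM with CLA18:2, 39, 42.8, 42.1 and 37.5 with RSL3+CLA18:2 and 55.9, 63.2, 62.2 and 49 with CLA18:3. The lowest library with a conjugated acid was at 37.5 CPM and the highest of the others at 24.4. DNAJB9 (ERdj4), a J-domain cofactor that helps BiP return IRE1 to its inactive form and a known XBP1 target, showed the largest change of the set at 1.63 ± 0.10 with CLA18:2 and 1.88 ± 0.10 with CLA18:3 (adjusted p = 6.1e-16 and 3.1e-17). HSP90B1, the Hsp90 of the ER, rose by 0.78 ± 0.04 and 0.74 ± 0.04 with the same acids. The small proteins SDF2L1, a partner of J-domain cofactors, and MANF, a secreted protein that binds BiP, had their largest value with CLA18:3, at 1.18 ± 0.13 and 0.94 ± 0.07, beside 0.62 ± 0.14 and 0.54 ± 0.07 with CLA18:2. For HYOU1, a nucleotide exchange factor of BiP, and DNAJC3 (P58IPK), an inhibitor of PERK and BiP cofactor, the larger value was with CLA18:2, at 0.72 ± 0.04 and 0.79 ± 0.06 beside 0.44 ± 0.04 and 0.50 ± 0.06. CRELD2 stood at 0.60 ± 0.06 and 0.60 ± 0.06, and DNAJB11 (ERdj3) at 0.36 ± 0.05 and 0.47 ± 0.05. The 2 doses differ, so no test was made between CLA18:2 and CLA18:3.

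The lectin chaperones calreticulin (CALR) and calnexin (CANX), which hold glycoproteins during folding, and their oxidoreductase PDIA3 (ERp57) rose with LA and with both conjugated acids. PDIA3 stood at 431, 433, 438 and 429 CPM in the DMSO libraries, at 452, 442, 477 and 508 with RSL3, at 490.3, 468, 512 and 484 with LA and at 488, 503, 512 and 506 with RSL3+LA. Its level was 676, 582, 614 and 621 CPM with CLA18:2, 615, 605, 639.9 and 640.2 with RSL3+CLA18:2 and 628, 649, 647 and 644 with CLA18:3. PDIA3 was lowest in DMSO and closely alike in the 3 groups with a conjugated acid, whose libraries overlapped. It rose by 0.53 ± 0.04 with CLA18:2, 0.57 ± 0.04 with CLA18:3 and 0.18 ± 0.04 with LA (adjusted p = 2.6e-12, 8.6e-13 and 0.00588). CALR rose by 0.38 ± 0.05 and 0.41 ± 0.05 with the conjugated acids, and CANX by 0.53 ± 0.03 and 0.27 ± 0.03. With LA they rose by 0.16 ± 0.05 and 0.13 ± 0.03. The LA call of CALR was lost in 6 of the 8 fits that left out 1 of the DMSO or LA libraries, and that of CANX with no filter on low counts (adjusted p = 0.169).

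The disulfide enzymes split. PDIA4 stood at 286, 272, 276 and 271 CPM in the DMSO libraries, at 292, 286, 281 and 300.2 with RSL3, at 338, 325, 344 and 316 with LA and at 338, 317, 325 and 326 with RSL3+LA. Its level was 458, 427, 445 and 458 CPM with CLA18:2, 412, 399, 381 and 377 with RSL3+CLA18:2 and 424, 399, 405 and 413 with CLA18:3. PDIA4 (ERp72), which forms and rearranges disulfide bonds, was above DMSO in every library with a fatty acid. It rose by 0.69 ± 0.04 with CLA18:2, 0.57 ± 0.04 with CLA18:3 and 0.26 ± 0.04 with LA. PDIA6 and P4HB (protein disulfide isomerase itself) rose by 0.32 ± 0.04 and 0.41 ± 0.04 with CLA18:2 and by 0.37 ± 0.04 and 0.37 ± 0.04 with CLA18:3. The oxidases that recharge these enzymes differed from each other. ERO1A, also known as a hypoxia target, was at -0.01 ± 0.05 with CLA18:2 (95% interval -0.10 to 0.09) and -0.01 ± 0.05 with CLA18:3 (95% interval -0.10 to 0.08), and both intervals end below the medians of the set. ERO1B stood at 10.2, 10.1, 9.41 and 9.6 CPM in DMSO, 18.2, 17.2, 17.5 and 18.7 with CLA18:2 and 7.14, 12.6, 12.2 and 15.1 with CLA18:3. It rose by 0.86 ± 0.13 with CLA18:2 (adjusted p = 2.4e-06) and was at 0.26 ± 0.14 with CLA18:3, where 1 library lay below DMSO and 3 above and the test was not passed. DNAJC10 (ERdj5), a reductase that opens disulfides ahead of ERAD, was at 0.30 ± 0.05 with CLA18:2 and 0.03 ± 0.05 with CLA18:3, the second not past the test.

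Of the 8 tested ERAD genes, 7 rose with CLA18:2 and 7 with CLA18:3, where 20.1% and 19.1% of all tested genes rose. Among genes averaging at least 10 CPM, 29.2% and 28.2% rose. HERPUD1 stood at 63.4, 61.4, 63.7 and 69.2 CPM in the DMSO libraries, at 71.2, 70.1, 70.7 and 75.3 with RSL3, at 62, 62.7, 61.5 and 67.3 with LA and at 67.2, 68.4, 70.6 and 70.8 with RSL3+LA. Its level was 154, 140.3, 136 and 143 CPM with CLA18:2, 111, 111, 119 and 111 with RSL3+CLA18:2 and 152, 141, 175 and 145 with CLA18:3. HERPUD1 (Herp), a scaffold of the ubiquitin ligase complex in the ER membrane, stood at 110.8 CPM in the lowest library with a conjugated acid and at 75.3 in the highest of the others. It rose by 1.16 ± 0.06 with CLA18:2 and 1.25 ± 0.06 with CLA18:3 (adjusted p = 2.4e-18 and 7.5e-19), and with LA it was at -0.02 ± 0.06. The ligase itself, SYVN1 (HRD1), rose by 0.81 ± 0.07 and 0.45 ± 0.07. Its adaptor SEL1L stood at 164, 155, 148 and 161 CPM in DMSO, 263, 214, 244 and 216 with CLA18:2 and 155, 164, 182 and 141 with CLA18:3. The CLA18:2 libraries were all above DMSO and those of CLA18:3 overlapped it, so that SEL1L was at 0.58 ± 0.07 with CLA18:2 (adjusted p = 2.5e-08) and 0.03 ± 0.07 with CLA18:3 (95% interval -0.11 to 0.17).

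EDEM1, a mannosidase-like protein that hands glycoproteins to ERAD and a classical XBP1 target, rose with all fatty acid treatments, by 0.75 ± 0.05 with CLA18:2, 0.35 ± 0.05 with LA and 0.28 ± 0.05 with CLA18:3. Its relative EDEM2 and the lectin OS9 rose by 0.34 ± 0.07 and 0.33 ± 0.04 with CLA18:2. Of the derlins, membrane proteins of the exit channel, DERL1 rose by 0.34 ± 0.05 with CLA18:2 and 0.33 ± 0.05 with CLA18:3. DERL2 was at 0.07 ± 0.06 with CLA18:2, not past the test, and at 0.18 ± 0.06 with CLA18:3, a call that was lost without DMSO replicate 2 (adjusted p = 0.0804) and with no filter on low counts (0.129). The count of 0 for DERL3 allows up to 3 counts, or 0.124 to 0.185 CPM depending on the library, and 77% of its annotated exon bases are shared with SMARCB1, a gene on which reads from them may have been counted or left out, which was not tested.

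The translocation genes rose together with modest values. SEC61A1 and SEC61B, subunits of the channel through which new proteins enter the ER, rose by 0.46 ± 0.03 and 0.21 ± 0.07 with CLA18:2 and by 0.38 ± 0.03 and 0.38 ± 0.06 with CLA18:3. SSR1 (TRAP alpha), which sits beside the channel, rose by 0.41 ± 0.04 and 0.29 ± 0.04. WFS1 stood at 35.5, 38.8, 40.7 and 37.3 CPM in the DMSO libraries, at 41.7, 39.2, 37.2 and 39 with RSL3, at 44, 45.8, 37.4 and 39.8 with LA and at 44.9, 41.3, 41.4 and 42.3 with RSL3+LA. Its level was 94.3, 89.9, 94.7 and 94.2 CPM with CLA18:2, 79.1, 73.5, 72.8 and 70.6 with RSL3+CLA18:2 and 71, 62.9, 55.3 and 63.2 with CLA18:3. WFS1 (wolframin), an ER membrane protein known to restrain ATF6 and to affect ER calcium, was high in the 3 groups with a conjugated acid and overlapped DMSO with RSL3 and with LA. It rose by 1.29 ± 0.07 with CLA18:2, 0.96 ± 0.07 with RSL3+CLA18:2 and 0.73 ± 0.07 with CLA18:3.

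Across the 7 groups the 34 genes had their highest mean with CLA18:2 for 20 genes, with CLA18:3 for 11, with RSL3+CLA18:2 for 2 and with LA for 1. The lowest mean was in DMSO for 24 genes and in RSL3 for 7. Sorted by the sensor that is known to drive them, 9 of 10 targets of IRE1 and XBP1 rose with CLA18:2 (median 0.43) and 10 of 10 with CLA18:3 (median 0.38). Of 11 tested genes tied to ATF6, 11 rose with CLA18:2 (median 0.62) and 10 with CLA18:3 (median 0.74). The share of all tested genes that rose was 20.1% with CLA18:2 and 19.1% with CLA18:3. For genes averaging at least 10 CPM it was 29.2% and 28.2%. The arms share promoter elements and some genes answer to both, so these counts do not separate the sensors. With LA, 4 of 10 in the first list and 8 of 11 in the second rose. LA raised 4.91% of all tested genes, and 7.87% of those averaging at least 10 CPM. The 15 genes called with LA ranged from SEC61A1 at 0.11 ± 0.03 to EIF2AK3 at 0.59 ± 0.11, with EDEM1 at 0.35 ± 0.05 and DNAJB9 at 0.43 ± 0.10. Of these calls, those of CALR, CRELD2, HYOU1, SEC61A1 and SEL1L were each lost when 1 library was left out. CALR lost its call without DMSO replicate 1, 3 or 4 or LA replicate 1, 2 or 4 (adjusted p 0.0512 to 0.149), and SEC61A1 without DMSO replicate 1, 2 or 3 or LA replicate 1 or 3 (0.0518 to 0.109). SEL1L lost its call without DMSO replicate 2 or 3 or LA replicate 3 or 4 (0.0635 to 0.112), CRELD2 without DMSO replicate 3 or 4 or LA replicate 4 (0.0519 to 0.0815), and HYOU1 without DMSO replicate 4 or LA replicate 1 (0.0512 to 0.0545). With no filter on low counts, the LA calls of CANX, HYOU1 and SEC61A1 were lost (adjusted p = 0.169, 0.0896 and 0.306).

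The 2 isomers were compared at the same dose of 80 µM, once without and once with RSL3, and p values were adjusted over all tested genes of each comparison. CLA18:2 gave the higher level in both settings. Without RSL3, 31 of 34 genes were higher with CLA18:2 than with LA and 0 lower (30.2% of all tested genes differed, 15.6% higher, and 23.1% of those averaging at least 10 CPM), with a median of 0.35. HERPUD1 differed by 1.18 ± 0.06, DNAJB9 by 1.20 ± 0.09, WFS1 by 1.16 ± 0.07 and HSPA5 by 0.99 ± 0.04 (adjusted p = 2.5e-18, 1.5e-12, 5.2e-16 and 1e-21). For HERPUD1 this difference was as large as that of CLA18:2 against DMSO, and LA against DMSO was at -0.02 ± 0.06. Among the called genes the smallest difference was for SSR1 at 0.19 ± 0.04. The genes that did not pass were DERL2 at 0.04 ± 0.06 (95% interval -0.08 to 0.17), ERO1A at -0.09 ± 0.05 (-0.19 to 0.00) and ERN1 at 0.26 ± 0.11 (0.03 to 0.49). EIF2AK3 was at 0.35 ± 0.11, a call lost without LA replicate 1 or CLA18:2 replicate 1 (adjusted p 0.0552 to 0.0651).

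With RSL3 in both arms, 28 of 34 genes were higher with CLA18:2 than with LA and 0 lower (26.1% of all tested genes differed, 14.1% higher), with a median of 0.29. DNAJB9 differed by 0.91 ± 0.09, WFS1 by 0.80 ± 0.07, HERPUD1 by 0.71 ± 0.06 and HSPA5 by 0.57 ± 0.04. The genes that did not pass were ERN1 at 0.07 ± 0.11 (95% interval -0.17 to 0.30), ERO1A at 0.02 ± 0.05 (-0.07 to 0.12), EDEM2 at 0.04 ± 0.07 (-0.11 to 0.18), DERL2 at 0.09 ± 0.06 (-0.03 to 0.21), DNAJC10 at 0.10 ± 0.05 (0.01 to 0.20) and OS9 at 0.10 ± 0.04 (0.01 to 0.19). The calls of EIF2AK3, ERO1B, SEL1L and SYVN1 were each lost without 1 library. For SYVN1 this was RSL3+LA replicate 2 (adjusted p = 0.079), and for SEL1L RSL3+LA replicate 3 or 4 or RSL3+CLA18:2 replicate 1 or 4 (0.0813 to 0.164). For EIF2AK3 it was RSL3+LA replicate 1, 3 or 4 or RSL3+CLA18:2 replicate 2 or 4 (0.0638 to 0.122), and for ERO1B any 1 of these 8 libraries except RSL3+LA replicate 2 (0.0517 to 0.109).

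**Figure D3:**
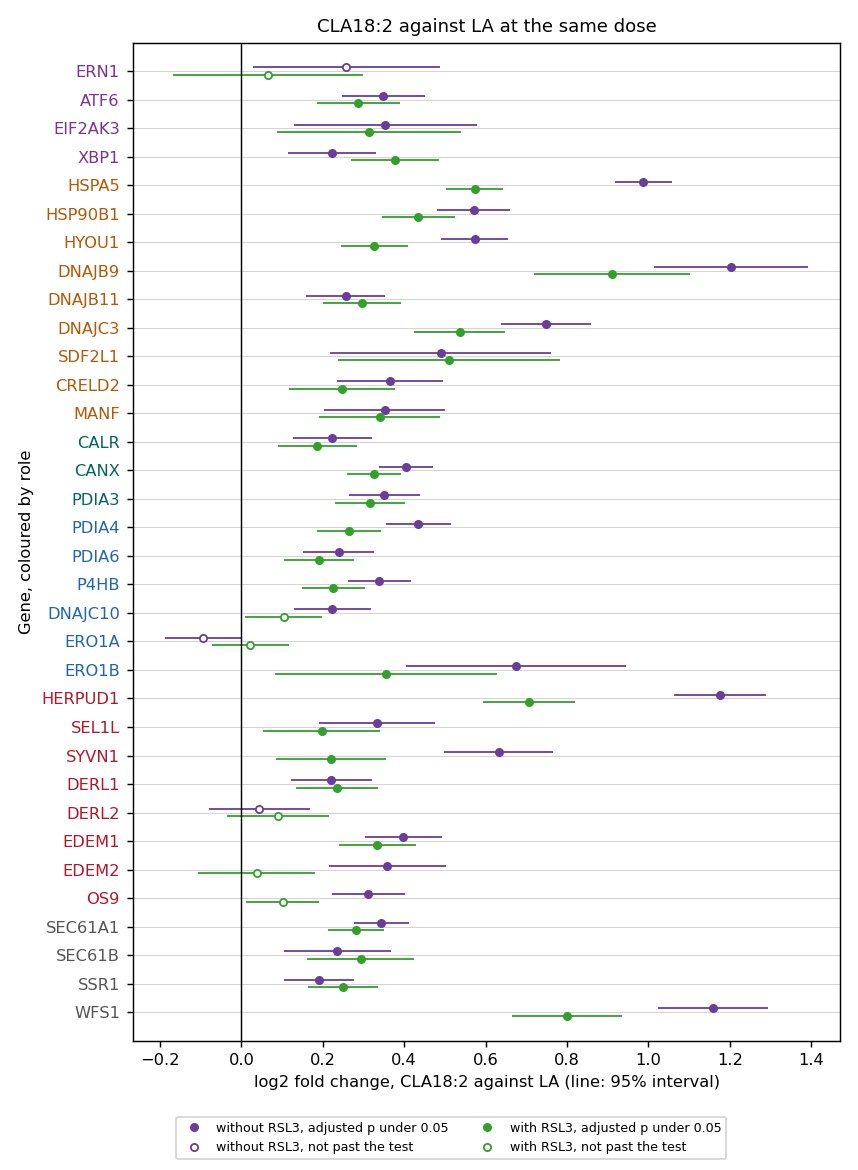
Log2 fold change of CLA18:2 against LA at the same dose (x axis) for the 34 tested ER genes (y axis, coloured by role), without RSL3 (purple) and with RSL3 in both groups (green); points are estimates, lines 95% intervals, and filled points have an adjusted p under 0.05. The 31 filled points without RSL3 and the 28 with it all lie above 0, and HSPA5, HERPUD1, SYVN1 and WFS1 lie lower with RSL3 than without.

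RSL3 was added in 3 backgrounds, and the number of ER genes that changed was 1 in DMSO, 0 in LA and 14 in CLA18:2. In DMSO, 1 of 34 genes rose (0.202% of all tested genes changed, 0.178% rose), which was HSPA5 at 0.17 ± 0.03 (adjusted p = 0.0156). It was lost with no filter on low counts (adjusted p = 0.187, where DNAJB9 was called instead), when only the 2 groups were fitted (adjusted p = 0.0727), and without DMSO replicate 3 or 4 or RSL3 replicate 1 or 4 (adjusted p 0.0727 to 0.102). Over these settings the number of ER genes called with RSL3 in DMSO ran from 0 to 1, and limma voom called 5. A further 11 genes had an unadjusted p under 0.05, all with positive values, among them DNAJB9 at 0.35 ± 0.10 and EDEM1 at 0.18 ± 0.05. For 10 of the 34 all RSL3 libraries lay above all DMSO libraries, against 3.98% of all tested genes. The simulated test of this comparison recovered 34% of genes changed 1.25-fold. Its changed genes were not drawn at the level of the ER genes, which had a median of 119 CPM against 14.9 over all tested genes. Recovery of the ER genes themselves was not measured, and small changes among them could be missed. In LA, 0 of 34 genes changed with RSL3 (0.049% of all tested genes changed) by edgeR, DESeq2 and limma voom alike, 3 had an unadjusted p under 0.05, and HSPA5 was at -0.03 ± 0.03 (95% interval -0.10 to 0.04).

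In CLA18:2, 14 of 34 genes fell when RSL3 was added and 0 rose (11.9% of all tested genes changed, 5.24% fell). HSPA5 fell by 0.44 ± 0.03 (adjusted p = 8.8e-11), its 4 libraries all below the 4 with CLA18:2 alone. HYOU1 fell by 0.34 ± 0.04, HERPUD1 by 0.34 ± 0.05, WFS1 by 0.33 ± 0.06, SEL1L by 0.33 ± 0.07 and SYVN1 by 0.30 ± 0.07 (adjusted p = 4.2e-07, 3.2e-05, 0.00043, 0.00139 and 0.00197). The other 8 that fell were CANX, CRELD2, DNAJC3, DNAJC10, HSP90B1, OS9, P4HB and PDIA4, by 0.11 to 0.21. DNAJB9 was at -0.27 ± 0.09, with an adjusted p just over the threshold. For 17 of the 34 all RSL3+CLA18:2 libraries lay below all CLA18:2 libraries, against 6.84% of all tested genes, and 7.72% of genes averaging at least 10 CPM fell. CRELD2 lost its call without CLA18:2 replicate 2, 3 or 4 or RSL3+CLA18:2 replicate 1 or 4 (adjusted p 0.0514 to 0.124), and DNAJC3 without CLA18:2 replicate 1 or RSL3+CLA18:2 replicate 1, 2 or 3 (0.0569 to 0.123). HSP90B1 lost it without CLA18:2 replicate 1 or 3 or RSL3+CLA18:2 replicate 1, 2 or 4 (0.0581 to 0.132), and P4HB without CLA18:2 replicate 1 or 4 or RSL3+CLA18:2 replicate 1, 2 or 4 (0.0623 to 0.115). By arm, 7 of 11 ATF6 genes and 2 of 10 IRE1 and XBP1 genes fell. In the interaction of RSL3 with CLA18:2 these counts were 6 of 11 and 4 of 10, where 1.8% of all tested genes were lower. No difference between the arms was tested. XBP1 itself was at 0.08 ± 0.05, and its RSL3+CLA18:2 libraries lay above those of CLA18:2. All 14 genes that fell still had a positive value against DMSO in RSL3+CLA18:2, from 0.10 for DNAJC10, which did not pass, to 0.96 for WFS1.

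The difference between backgrounds was tested as an interaction. The RSL3 response was lower in CLA18:2 than in DMSO for 13 of 34 genes and higher for 0 (3.55% of all tested genes had such an interaction, 1.8% lower). They were DNAJB9, HSPA5, HERPUD1, SYVN1, HYOU1, SEL1L, WFS1, DNAJC3, HSP90B1, EDEM1, PDIA4, DNAJC10 and CANX, with differences from -0.62 to -0.24. For HSPA5 it was -0.61 ± 0.05 (adjusted p = 6.5e-10) and for DNAJB9 -0.62 ± 0.13 (adjusted p = 0.00581). The calls of WFS1 (without DMSO replicate 1, adjusted p = 0.0511), SEL1L (without CLA18:2 replicate 1, 0.0512), EDEM1 (without RSL3 replicate 4 or CLA18:2 replicate 1, 0.0531 to 0.0623) and DNAJC10 depended on single libraries. For DNAJC10 these were DMSO replicate 3 or 4, RSL3 replicate 4, CLA18:2 replicate 1 and RSL3+CLA18:2 replicate 3 (0.0507 to 0.0962). Between the isomers, the RSL3 response was lower in CLA18:2 than in LA for 6 of 34 genes and higher for 0 (3.63% of all genes, 1.22% lower): HERPUD1 at -0.47 ± 0.08, HSPA5 at -0.41 ± 0.05, SYVN1 at -0.41 ± 0.09, WFS1 at -0.36 ± 0.09, HYOU1 at -0.25 ± 0.06 and OS9 at -0.21 ± 0.06. WFS1 lost this call without LA replicate 3 or RSL3+LA replicate 1 (adjusted p 0.056 to 0.0601), and OS9, at the threshold with an adjusted p of 0.05, without any 1 of 12 libraries (adjusted p 0.0547 to 0.105), namely LA replicates 2 to 4, CLA18:2 replicates 1 to 3, RSL3+LA replicates 1, 3 and 4, and RSL3+CLA18:2 replicates 1 to 3. For RSL3 with LA against RSL3 alone in DMSO, 0 of 34 genes had an interaction by edgeR (0.0245% of all genes), 9 had an unadjusted p under 0.05, DESeq2 called 2 (HSPA5 and CANX) and limma voom 1 (HSPA5). The RSL3+CLA18:2 libraries also differed from those of CLA18:2 in detected genes (20030 against 21778 on average) and varied more, and the part of this in the interactions was not tested. Without RSL3+CLA18:2 replicate 3, 13 genes fell when RSL3 was added to CLA18:2, and 12 and 5 had a lower response in CLA18:2 than in DMSO and in LA. The mitochondrial share of that library (1.68%) was near the DMSO average of 1.40%. The fit without it keeps the libraries at 0.263% to 0.313%, so the part of their low share was not tested.

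**Figure D4:**
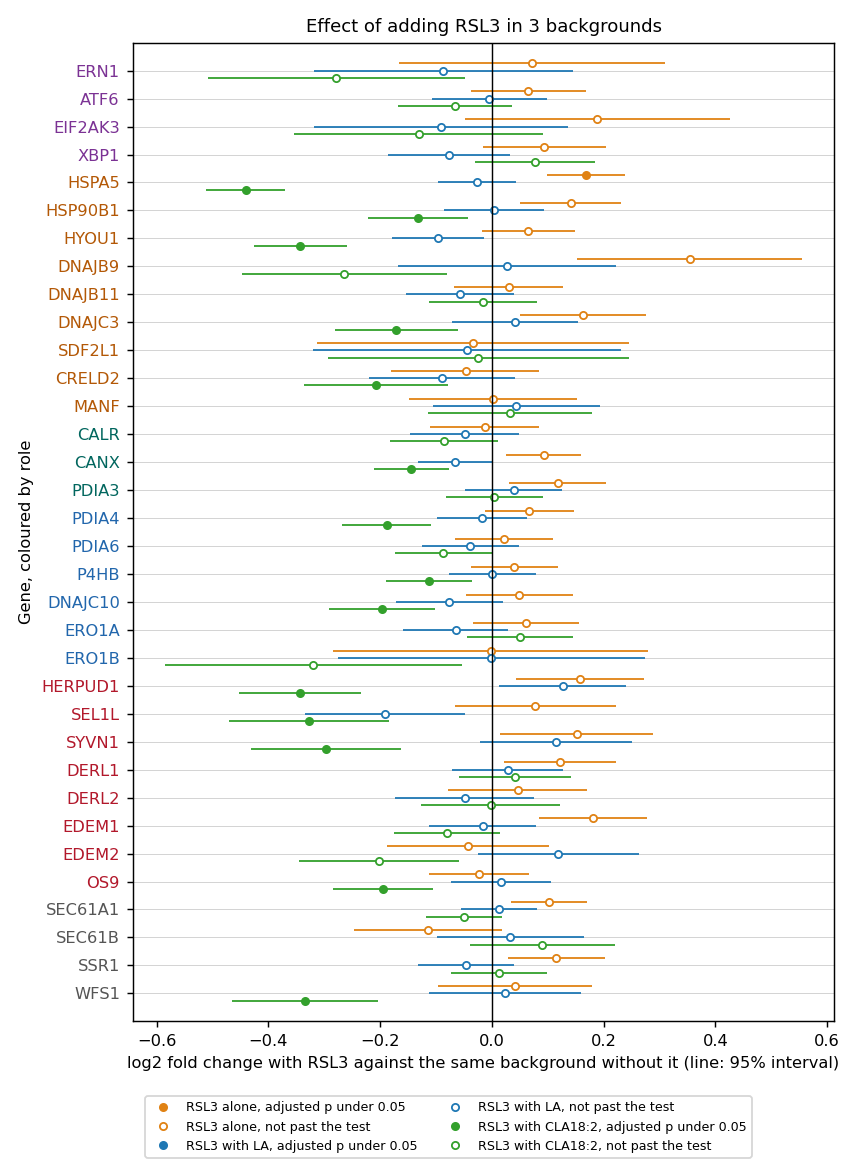
Log2 fold change on adding RSL3 (x axis) for the 34 tested ER genes (y axis, coloured by role) in DMSO (orange), LA (blue) and CLA18:2 (green); points are estimates, lines 95% intervals, and filled points have an adjusted p under 0.05. There is 1 filled point in DMSO, at HSPA5 above 0, none in LA, and 14 in CLA18:2, all below 0.

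Adding an acid to RSL3 gave the complementary view. RSL3+LA against RSL3 raised 4 of 34 genes and lowered 0 (9.58% of all tested genes changed, 3.78% rose): PDIA4 at 0.17 ± 0.04, HSPA5 at 0.14 ± 0.03, EDEM1 at 0.15 ± 0.05 and MANF at 0.23 ± 0.07. The count was 2 without RSL3+LA replicate 2 or replicate 4. EDEM1 lost its call without RSL3 replicate 1 or 2 or RSL3+LA replicate 1, 2 or 4 (adjusted p 0.0516 to 0.149), and MANF without RSL3 replicate 3 or 4 or RSL3+LA replicate 2 or 4 (0.0882 to 0.24). RSL3+CLA18:2 against RSL3 raised 28 of 34 and lowered 0 (30.4% changed, 15.9% rose), led by DNAJB9 at 1.01 ± 0.10, WFS1 at 0.92 ± 0.07 and HSPA5 at 0.72 ± 0.04, and all 28 kept their call in every alternative run. Against DMSO, the RSL3+LA call of MANF (0.23 ± 0.07) was lost without DMSO replicate 1, 3 or 4 or RSL3+LA replicate 2 or 4 (adjusted p 0.0629 to 0.23), and the RSL3+CLA18:2 call of OS9 (0.13 ± 0.04) without DMSO replicate 1 or RSL3+CLA18:2 replicate 4 (0.0791 to 0.0895).

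The PERK arm was read from 13 genes known as targets of ATF4 and its partners. With CLA18:2, 13 of 13 rose (median 1.09), where 38.8% of all tested genes changed and 20.1% rose. Among the 13 were PPP1R15A (GADD34, which reverses the phosphorylation of eIF2alpha) at 1.09 ± 0.05, CEBPB at 1.49 ± 0.09, SESN2 at 1.05 ± 0.07 and TRIB3 at 0.86 ± 0.06. With CLA18:3, 11 rose and 0 fell (median 1.37), with PPP1R15A at 1.63 ± 0.05 and ATF3 at 1.78 ± 0.08, where 35.9% of all tested genes changed and 19.1% rose. LA raised 2 of 13, CEBPB at 0.65 ± 0.09 and DDIT4 at 0.77 ± 0.17, and lowered 1, ATF3 at -0.50 ± 0.09, although EIF2AK3 itself rose with LA. Of all tested genes, 8.32% changed with LA and 4.91% rose. RSL3 alone raised 3 of 13, ATF3 at 0.84 ± 0.09, DDIT4 at 1.57 ± 0.17 and PPP1R15A at 0.36 ± 0.05, while 1 of the 34 ER genes and 0.178% of all tested genes rose. Other routes than PERK lead to ATF4, and the counts do not tell them apart. Adding RSL3 to CLA18:2 raised 2 of the 13, ATF3 at 1.49 ± 0.08 and PPP1R15A (named after its value was seen) at 0.23 ± 0.05, and lowered 5, with SESN2 at -0.56 ± 0.06, DDIT3 (CHOP) at -1.10 ± 0.15 and TRIB3 at -0.31 ± 0.06. Of all tested genes, 11.9% changed when RSL3 was added to CLA18:2 and 5.24% fell. RSL3+LA against RSL3 lowered 6 of the 13, with ATF3 at -0.87 ± 0.09, DDIT4 at -0.84 ± 0.16 and PPP1R15A at -0.21 ± 0.05, and raised 1, CEBPB at 0.39 ± 0.09. RSL3+LA against RSL3 changed 1564 of all 16325 tested genes (9.58%). Of these 1564, 617 rose (3.78% of all tested genes) and the rest fell. RSL3+CLA18:2 against RSL3 raised 8 and lowered 0, where 30.4% of all tested genes changed and 15.9% rose.

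The mRNAs that IRE1 is known to cut in its decay mode did not move together. Of 6, 2 rose and 2 fell with CLA18:2, where 38.8% of all tested genes changed and 20.1% rose. With CLA18:2, SPARC fell by 0.41 ± 0.04 and PDGFRB rose by 0.96 ± 0.10. With CLA18:3, 2 of the 6 rose and 1 fell, where 35.9% of all tested genes changed and 19.1% rose. BLOC1S1, the best known of these substrates, rose by 0.53 ± 0.19 with CLA18:3, and its libraries overlapped those of DMSO. Of 8 tested genes that process or relay the sensors, 2 rose and 3 fell with CLA18:2, beside the same shares of 38.8% changed and 20.1% higher over all tested genes. The site-1 protease MBTPS1, which cuts ATF6, rose by 0.39 ± 0.05, the ER-bound factor CREB3L1 fell by 0.74 ± 0.07 and TRAF2, an adaptor of IRE1, fell by 0.55 ± 0.08. With RSL3+CLA18:2 against CLA18:2, MBTPS1 fell by 0.25 ± 0.05.

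Further genes of the same compartment rose in number with the conjugated acids. Of all tested genes, 38.8% changed and 20.1% rose with CLA18:2, and 35.9% changed and 19.1% rose with CLA18:3. Of those averaging at least 10 CPM, 29.2% rose with CLA18:2 and 28.2% with CLA18:3. Of 23 other folding enzymes, 13 rose and 0 fell with CLA18:2, with HSPA13 at 0.62 ± 0.05, ERP44 at 0.55 ± 0.06, TMX3 at 0.52 ± 0.05 and PPIB at 0.34 ± 0.04, and 17 rose and 0 fell with CLA18:3. Of 19 other ERAD genes, 13 rose and 2 fell with CLA18:2 and 10 rose and 1 fell with CLA18:3. The p97 ATPase VCP, which extracts proteins from the membrane, rose by 0.91 ± 0.04, its cofactors UFD1 and NPLOC4 by 0.81 ± 0.06 and 0.77 ± 0.04, and its membrane anchor UBXN4 by 1.19 ± 0.05 with CLA18:2, and with CLA18:3 they rose by 0.77 ± 0.04, 0.83 ± 0.06, 0.53 ± 0.04 and 0.68 ± 0.05. Of 31 genes of translocation, glycosylation and export, 23 rose with CLA18:2 and 25 with CLA18:3 and 0 fell with either, led by the coat protein SEC24D at 1.02 ± 0.06 with CLA18:2 and with SRPRB, a subunit of the receptor for the signal recognition particle, at 0.61 ± 0.04 with CLA18:3. LA raised 11 of these 31 and lowered 1, with the retrieval receptor KDELR3 at 0.48 ± 0.07 and SEC24D at 0.36 ± 0.06. With LA 4.91% of all tested genes rose, and 7.87% of those averaging at least 10 CPM. With RSL3 alone 0 of the 23, 0 of the 19 and 0 of the 31 changed by edgeR, with 5, 4 and 9 at an unadjusted p under 0.05, where 0.202% of all tested genes changed.

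By the annotation of GENCODE release 29 on GRCh38, the genes described library by library lie at chr9:125234853-125241330 (HSPA5), chr7:108569568-108574850 (DNAJB9), chr22:28794555-28800597 (XBP1), chr17:64039142-64130819 (ERN1), chr1:161766294-161964070 (ATF6) and chr2:88556741-88627576 (EIF2AK3). HERPUD1 lies at chr16:56932048-56944863, WFS1 at chr4:6269849-6303265, PDIA3 at chr15:43746392-43773279 and PDIA4 at chr7:149003062-149028641. All are annotated as protein coding, and the counts are summed over each gene.

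Some values rest on counting choices that the sources used here do not give. In that annotation, 25.2% of the exon bases of PDIA6, 23.2% of those of DNAJB11, 18.9% of those of PDIA3, 15.1% of those of EIF2AK3, 13.5% of those of OS9 and 10.1% of those of SYVN1 overlap another gene, and without a stated strand setting reads there cannot be assigned. HSP90B1, PDIA3, XBP1, SSR1 and CALR have gene copies elsewhere in the genome, and how reads were shared with them was not tested. No search for copies was made, so other genes of the set may have them too.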

How the data were processed

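The deposited files hold raw counts per gene symbol that the authors made from total RNA, 1 column per library. The tools named in the submitters' processing notes are HISAT, featureCounts, SAMtools and DESeq2, with hg38 as the build; their versions, the annotation and the strand setting are not given in the sources used here. Groups come from the sample labels, and the series text calls the 4 replicates independent.

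All 28 libraries were fitted together in edgeR 4.0.16 (R 4.3.3) with 1 mean per group, TMM scaling and the default expression filter, which kept 16325 genes holding 99.9% of counts. Each contrast was tested by the quasi-likelihood F statistic, and p values were adjusted by Benjamini-Hochberg over all tested genes at 0.05. The SE of a log2 fold change is its size over the root of F, and intervals are at 95%. The 12 direct comparisons and 3 interactions are named where used. On simulated RSL3 against DMSO data (15832 genes, 50 per fold), the share recovered was 34% for genes changed 1.25-fold, 72% for 1.5-fold, 86% for 2-fold and 98% for 4-fold, with 5 false calls of 15632.

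Alternatives were RLE and upper-quartile scaling, no low-count filter, DESeq2 1.42.0, voom in limma 3.58.1 with group quality weights, a fit of only the groups compared, a replicate block and leaving out each library. CLA18:3 was at another dose and was not tested against CLA18:2. All 35 genes could be named, and of each further list at most 4 genes with the smallest p per comparison. Library by library values are given for the gene of each role with the largest median change, and for HSPA5, XBP1 and the sensors; ERO1B and SEL1L were added after their values were seen, in 3 groups. The members and lists were chosen with earlier results of these data known. Replicate pairs differed by more than sampling noise, with a chi-square per degree of freedom of 2.42 to 27.6 over 42 pairs. Figures were drawn with matplotlib 3.10.9 in Python 3.11.15.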

Additional observations from a re-analysis of the deposited data

Results flagged for a closer look

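The response to RSL3 differed between backgrounds for 13 genes when CLA18:2 was compared with DMSO, by edgeR's interaction test. The log2 differences were -0.611 for HSPA5 (adjusted p = 6.48e-10), -0.619 for DNAJB9 (0.00581), -0.501 for HERPUD1 (0.000142), -0.449 for SYVN1 (0.00433) and -0.408 for HYOU1 (4.6e-05). SEL1L stood at -0.407 (0.0155), WFS1 at -0.376 (0.0173), DNAJC3 at -0.333 (0.0101), HSP90B1 at -0.273 (0.00871), EDEM1 at -0.261 (0.0197), PDIA4 at -0.255 (0.00591), DNAJC10 at -0.245 (0.0298) and CANX at -0.237 (0.00233). The response also differed between the isomers for 6 genes, at -0.470 for HERPUD1 (adjusted p = 0.00043), -0.414 for HSPA5 (5.32e-06), -0.411 for SYVN1 (0.00849), -0.358 for WFS1 (0.0227), -0.246 for HYOU1 (0.0103) and -0.211 for OS9 (0.05). Both tests use the RSL3+CLA18:2 libraries and the CLA18:2 libraries.

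In 12 of 238 groups of 4 libraries, 1 library stood far from the other 3 (by Dixon's gap to range ratio at its 95% critical value), where chance gives about 1 in 20. With CLA18:2, replicate 1 held EIF2AK3 at 26.94 CPM (others 22.46 to 22.96), MANF at 101.6 (120.1 to 122.7) and P4HB at 956.7 (902.2 to 904), and replicate 2 held WFS1 at 89.93 (94.24 to 94.65). With RSL3, replicate 4 held DNAJC10 at 159.8 CPM (147.8 to 148.5) and DERL2 at 63.36 (57.22 to 57.93), and replicate 1 held PDIA6 at 290.5 (279.1 to 280.9). With RSL3+LA, SDF2L1 stood at 24.88 CPM in replicate 3 (38.09 to 39.19) and OS9 at 116.2 in replicate 2 (120.7 to 120.8). The others were CANX at 1041 CPM in LA replicate 2 (1089 to 1097), HERPUD1 at 118.9 in RSL3+CLA18:2 replicate 3 (110.8 to 111.3) and SYVN1 at 52.51 in DMSO replicate 4 (58.21 to 59.14).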

How the results depend on the processing

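No value of the 34 genes changed direction past the test in any alternative run, and the 32 calls with CLA18:2 held in all of them. The number of genes called with RSL3 against DMSO was 5 with limma voom and 0 when only the groups compared were fitted, and it ran from 0 to 1 when single libraries were left out. For RSL3+LA against RSL3 it was 1 when only the groups compared were fitted, and 2 to 6 with single libraries left out. For the interaction of RSL3 with LA, DESeq2 called 2 and limma voom 1. Leaving out single libraries gave 11 to 15 calls for LA, 27 to 30 for CLA18:3, 10 to 14 for RSL3+CLA18:2 against CLA18:2, 10 to 14 for the interaction of RSL3 with CLA18:2 and 4 to 6 for that between isomers. The causes were not tested. Between same-numbered libraries, 28 of 84 residual correlations over 9049 genes exceeded 0.1 (median 0.000127, range -0.409 to 0.41). No group pair exceeded 0.1 in all 4 numbers. RSL3 was positive in all 4 with LA (0.0572, 0.383, 0.336 and 0.271) and with RSL3+CLA18:2 (0.129, 0.0983, 0.19 and 0.337). It was also positive in all 4 with RSL3+LA (0.197, 0.0177, 0.206 and 0.0488). Correlations between differently numbered libraries were not computed, so a shared deviation by number was not settled. With the replicate block, 2 results for single genes lost their call and 508 kept their side of the threshold; P4HB in RSL3+CLA18:2 against CLA18:2 (13 calls in place of 14) and OS9 between isomers (5 in place of 6) were the 2 lost. Beside those given with the results, single calls were lost with no low-count filter (SEC61A1 in RSL3+LA against DMSO, OS9 in RSL3+CLA18:2 against DMSO, EDEM1 in RSL3+LA against RSL3, P4HB in RSL3+CLA18:2 against CLA18:2, ERO1B in RSL3+CLA18:2 against RSL3+LA, DNAJC10 in the interaction of RSL3 with CLA18:2 and OS9 between isomers), with upper-quartile scaling (OS9 in RSL3+CLA18:2 against DMSO, and EIF2AK3, ERO1B and SEL1L in RSL3+CLA18:2 against RSL3+LA) and with limma voom (DNAJC3, HSP90B1 and P4HB in RSL3+CLA18:2 against CLA18:2, EIF2AK3 and SEL1L in RSL3+CLA18:2 against RSL3+LA, and OS9 between isomers). When only the groups compared were fitted, they were ERN1 in CLA18:3 against DMSO, EDEM1, HSPA5 and MANF in RSL3+LA against RSL3, CRELD2, DNAJC3 and P4HB in RSL3+CLA18:2 against CLA18:2, and EIF2AK3 in RSL3+CLA18:2 against RSL3+LA. Small changes are limited by depth and spread.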
